A study of Mus musculus with 35 samples.

Results

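Serotonin receptors were followed in the striatum of mice that carry the Huntington's disease mutation. The members were 8 genes of the family, Htr1a, Htr1b, Htr1d, Htr2a, Htr2c, Htr4, Htr6 and Htr7, taken by symbol from the deposited table of 22099 genes with the condition of a mean of at least 0.3 CPM (counts scaled to a fixed library total), which all 8 met. The table held 14 serotonin receptor genes, and 4 of the other 6 also reached that mean and are described beside the members. All 8 members passed the filter on low counts, as did 17639 genes in all.

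The RNAseq samples came from 35 female mice of the strain C57BL6/J, 1 library per mouse, aged 299 to 304 days. Mice were wild-type (Htt +/+, n = 17) or heterozygous for the Htt Q111 knock-in allele (Htt Q111/+, n = 18), in which an expanded CAG tract sits in 1 copy of the endogenous huntingtin gene in every cell of the body. Each week from 2 to 10 months of age they were injected intraperitoneally with saline (4 µL per g; 6 Htt +/+ and 6 Htt Q111/+ mice), with an off-target control antisense oligonucleotide (control ASO, 50 mg/kg; 5 and 6 mice) or with an ASO against both alleles of Htt (Htt ASO, 50 mg/kg; 6 and 6 mice). RNA came from the whole hemistriatum, the right side in every mouse but 1 (left, Htt +/+ with Htt ASO). The comparisons asked how the mutation changed striatal transcripts and whether an ASO delivered outside the brain altered them.

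Serotonin reaches the striatum along axons of the raphe nuclei, and the receptor transcripts of striatal tissue come from the cells that lie there. HTR1 receptors couple to Gi/o proteins and lower cyclic AMP, HTR2 receptors couple to Gq/11 and raise inositol phosphates and calcium, and HTR4, HTR6 and HTR7 couple to Gs and raise cyclic AMP. In rodents the medium spiny neurons of the striatum carry HTR1B largely on their axon terminals, where it curbs transmitter release. HTR2C is known both from striatal neurons and, at very high level, from the choroid plexus.

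The libraries held 32200158 to 38641924 counts (median 35538941). The 7 markers of medium spiny neurons, the main striatal cell, summed to 7950 to 9360 CPM in Htt +/+ and 5950 to 6930 CPM in Htt Q111/+ mice, so the tissue label held. Huntingtin, listed as Hdh, averaged 88.3 ± 10.7 CPM (SD, n = 17) in wild-type and 75.3 ± 8.37 CPM (SD, n = 18) in mutant animals, and its log2 fold change for Htt ASO against control ASO, -0.077, did not pass (SE 0.068, limma adjusted p = 0.967). One library stood apart by its choroid plexus content: in Htt +/+ control ASO mouse 1, 13 choroid plexus markers summed to 1650 CPM, against at most 156 CPM in any other mouse.

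The bases before the start of transcription are shown for the member that rose most and for a pair of HTR1 members that fell. They were chosen since their transcripts moved in opposite directions with genotype. Sequences are from RefSeq on GRCm38.p6, whose promoter table held 7 of the 8 members (all but Htr4); each is the 250 bases upstream of the gene's start, read along the gene's own strand. Capitals mark CCAAT boxes (CCAAT, or ATTGG on the other strand) and GC boxes (GGGCGG, or CCGCCC), from a search of both strands that also covered the TATA box (TATAAA), the cyclic AMP response element (TGACGTCA), its core (TGACG, which also lies within the full element) and the E-box (CACGTG).
Htr2c, chrX:146962263-146962512, plus strand: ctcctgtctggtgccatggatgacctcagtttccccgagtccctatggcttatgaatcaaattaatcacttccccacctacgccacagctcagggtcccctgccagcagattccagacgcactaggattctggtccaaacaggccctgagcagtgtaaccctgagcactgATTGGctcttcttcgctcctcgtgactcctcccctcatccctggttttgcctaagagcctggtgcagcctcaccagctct
Htr1b, chr9:81633833-81634082, minus strand: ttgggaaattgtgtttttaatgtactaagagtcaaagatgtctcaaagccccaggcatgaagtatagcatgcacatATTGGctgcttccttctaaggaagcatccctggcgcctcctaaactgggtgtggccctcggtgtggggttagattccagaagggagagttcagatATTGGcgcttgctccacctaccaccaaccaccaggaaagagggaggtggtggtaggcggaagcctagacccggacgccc
Htr1d, chr4:136423274-136423523, plus strand, the first of 2 starts: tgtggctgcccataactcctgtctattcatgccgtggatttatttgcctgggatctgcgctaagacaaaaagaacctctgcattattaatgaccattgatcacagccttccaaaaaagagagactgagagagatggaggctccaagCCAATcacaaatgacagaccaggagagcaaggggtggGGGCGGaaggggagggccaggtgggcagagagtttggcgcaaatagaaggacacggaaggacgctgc
The Htr2c window held 1 CCAAT box, 80 bases upstream, the Htr1b window held 2, 174 and 79 bases upstream, and the Htr1d window held 1 CCAAT box and 1 GC box, 104 and 67 bases upstream. These are common letters: of 32851 mouse promoters of this length, 33.8% held a CCAAT box and 32.7% a GC box, while 12.4% held a TATA box, 1.55% the full cyclic AMP element, 17.8% its core and 6.02% the E-box, none of which lay in these 3 windows. The GC content was 55.6% for Htr2c, 52.4% for Htr1b and 51.6% for Htr1d, beside a median of 52.4% over all promoters. The window of the other Htr1d start, not shown, differed, with 72.4% GC, 3 GC boxes and no CCAAT box. By the GENCODE M21 gene models, whose starts can differ from those of RefSeq, Htr2c spans chrX:146962513-147197277, Htr1b chr9:81628291-81633828 and Htr1d chr4:136423524-136444398. The antisense gene D430036J16Rik lies over exons of Htr1b. The authors counted on the older build mm9, and whether counting used strand was not given in the sources used here, so reads of Htr1b and D430036J16Rik may not be fully separated.

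Levels between genes were compared per kilobase of the longest annotated coding transcript. Over all mice Htr2c was highest at 17.5 CPM per kb (range 11 to 24.0), above every mouse's value of the next member, Htr1b, at 5.47 (3.5 to 8.37). Htr1d followed at 4.37 (3.31 to 6.21) and Htr2a at 3.45 (2.32 to 4.45), and the ranges of Htr1b, Htr1d and Htr2a overlapped. Htr7 at 1.16 (0.669 to 1.61), Htr4 at 1.14 (0.678 to 2.0), Htr6 at 1.06 (0.702 to 1.39) and Htr1a at 0.565 CPM per kb (0.417 to 0.802) formed the low end. Neighbours within this low set overlapped, and all its values lay below the lowest Htr2a value. The order in the middle depended on the transcript: with the shortest one, Htr4 moved to 4.41 CPM per kb, above Htr2a, while Htr2c stayed first at 105 and Htr1b second at 20.3. In Htt +/+ mice alone Htr2c stood at 13.2 and Htr1b at 6.49 CPM per kb, and in Htt Q111/+ mice at 21.5 and 4.5.

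Genotype separated the members into 3 sets. Averaged over treatments, Htr2c and Htr2a rose in Htt Q111/+ mice, Htr1b, Htr4 and Htr1d fell, and Htr1a, Htr6 and Htr7 did not pass the test. That is 5 of 8 members at an adjusted p under 0.05 in limma after voom, where 39.8% of all tested genes passed, 21.8% higher and 18% lower; the members' share was not tested against that background. Both HTR2 members were higher, 2 of 3 HTR1 members were lower, and of the 3 Gs-coupled members 1 was lower. The median log2 fold change over all tested genes was 0.0037. Tissue RNA cannot tell fewer cells of a type from less RNA per cell. Which mice were littermates is not given in the sources used here, so p-values measure the spread between these mice.

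**Figure D1:**
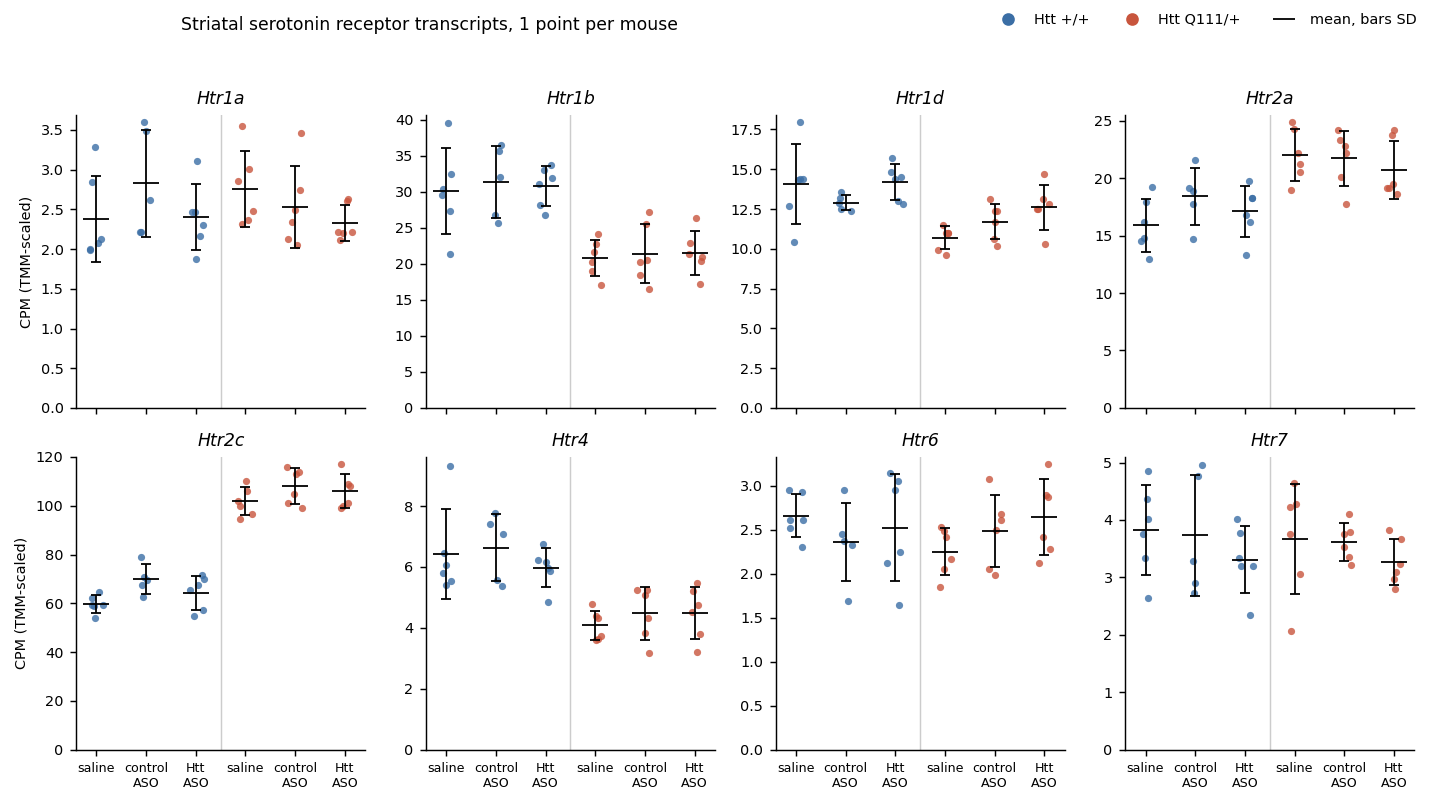
CPM (TMM-scaled, linear axes from 0) of the 8 members in each of 35 mice, by genotype and treatment, with the mean and SD of each group in black. Htr2c is the member whose genotypes do not overlap over all mice, from 53.8 to 79.1 CPM in Htt +/+ and from 94.5 to 117 CPM in Htt Q111/+ mice.

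Htr2c, a Gq/11-coupled receptor whose transcript is edited by adenosine deaminases, was the most abundant member and the one that changed most. In Htt +/+ mice its lowest, median and highest values were 53.8, 59.4 and 64.5 CPM on saline, 54.7, 66.6 and 71.6 CPM on Htt ASO, and 62.4, 69.7 and 79.1 CPM on control ASO. In Htt Q111/+ mice they were 94.5, 101 and 110 CPM on saline, 99.0, 109 and 116 CPM on control ASO, and 99.2, 105 and 117 CPM on Htt ASO. Every Htt Q111/+ mouse lay above every Htt +/+ mouse, a separation that 2.21% of tested genes showed. The means were 64.4 ± 6.79 CPM (SD, n = 17) and 105 ± 6.84 CPM (SD, n = 18), a rise of 62.9% (log2 fold change 0.70, SE 0.036, limma adjusted p = 4.73e-17). A permutation test that shuffled genotypes inside each treatment reached p = 1e-05, the lowest value 100000 resamples allow. A fold change of this size or larger, in either direction, was seen in 1.8% of tested genes (317 of 17639). In log2 units the rise was 0.77 (SE 0.061) with saline, 0.63 (SE 0.064) with the control ASO and 0.72 (SE 0.061) with the Htt ASO, each called by limma with an adjusted p of at most 7.14e-09.

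Because the choroid plexus makes Htr2c, its markers are given beside this result. Of 12 tested choroid plexus markers, 2 passed by genotype averaged over treatments, beside 39.8% of all tested genes. Both were lower in Htt Q111/+ mice: Prlr, the prolactin receptor, at 2.66 ± 3.98 against 1.16 ± 0.280 CPM, and Otx2, a homeobox factor, at 1.63 ± 1.18 against 1.12 ± 0.305 CPM (SD, n = 17 and 18). Within treatments, 0 of the 12 passed on saline, 0 on Htt ASO and 3, all lower, on control ASO. In that order, 17.4%, 21.2% and 18.5% of all tested genes passed. The control ASO groups include the mouse with the very high marker sum. The 13 listed markers summed to 47.2 to 1650 CPM (median 77.0) in wild-type mice, and to 47.9 to 156 CPM (median 65.8) in mutant mice. No listed marker was at 0 in all mice of either genotype, and Ttr, the choroid plexus transthyretin, averaged 125 ± 344 and 35.2 ± 25.1 CPM. The mouse with the very high marker sum also had the highest Htr2c among Htt +/+ mice, 79.1 CPM. Without it the genotype difference of Htr2c was 0.72 (limma adjusted p = 4.45e-17), and with the mean choroid plexus level as a covariate it was 0.74 (limma adjusted p = 2.11e-17). The part of choroid plexus content in the Htr2c difference was not tested.

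**Figure D2:**
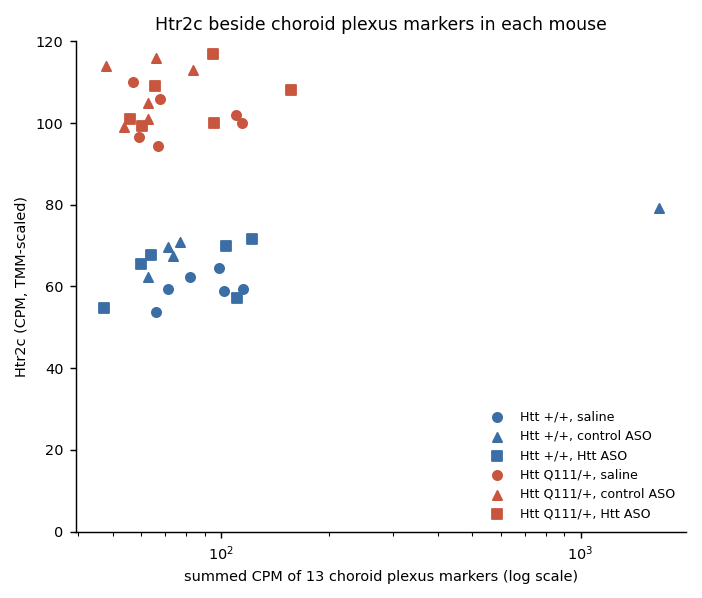
Htr2c (CPM, TMM-scaled, linear axis) against the summed CPM of 13 choroid plexus markers (log axis) in each mouse, colored by genotype with a symbol for each treatment. One Htt +/+ mouse on control ASO stands at 1650 CPM of markers and 79.1 CPM of Htr2c, below the lowest Htt Q111/+ mouse at 94.5 CPM.

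Htr2a, the other Gq/11-coupled member and the main target of serotonergic hallucinogens, rose less. Htt +/+ mice ranged from 13 to 19.2 CPM on saline (median 15.5), 14.7 to 21.6 CPM on control ASO (median 18.9) and 13.3 to 19.7 CPM on Htt ASO (median 17.5). Htt Q111/+ mice ranged from 19.0 to 24.9 CPM on saline (median 21.7), 17.7 to 24.2 CPM on control ASO (median 22.5) and 18.6 to 24.2 CPM on Htt ASO (median 19.3). The genotypes overlapped, with 9 of 18 Htt Q111/+ mice above the highest Htt +/+ mouse. The means were 17.1 ± 2.41 CPM (SD, n = 17) and 21.5 ± 2.33 CPM (SD, n = 18), a rise of 25.6% (log2 fold change 0.33, SE 0.059, limma adjusted p = 2.68e-05, permutation p = 3e-05). In log2 units it rose by 0.47 with saline (limma adjusted p = 0.000914) and 0.27 with the Htt ASO (limma adjusted p = 0.0494), and the difference of 0.24 with the control ASO did not pass (limma adjusted p = 0.1), though it did without Htt Q111/+ control ASO mouse 4 (0.30, limma adjusted p = 0.0478). The call on Htt ASO was lost in 22 of the 35 fits that left out 1 mouse.

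Htr1b, the Gi/o-coupled terminal autoreceptor and heteroreceptor, fell. Htt +/+ mice ranged from 21.3 to 39.5 CPM on saline (median 30.0), 25.6 to 36.5 CPM on control ASO (median 32.0) and 26.8 to 33.7 CPM on Htt ASO (median 31.5). Htt Q111/+ mice ranged from 17.1 to 24.1 CPM on saline (median 20.9), 16.5 to 27.2 CPM on control ASO (median 20.4) and 17.2 to 26.4 CPM on Htt ASO (median 21.1). The groups overlapped on saline and on control ASO but not on Htt ASO, where 10.6% of tested genes had ranges that did not overlap, and over all mice 10 of 18 Htt Q111/+ mice lay below the lowest Htt +/+ mouse. The means were 30.7 ± 4.49 CPM (SD, n = 17) and 21.2 ± 3.12 CPM (SD, n = 18), or 69.3% of wild-type (log2 fold change -0.53, SE 0.072, limma adjusted p = 3.07e-07, permutation p = 1e-05, the smallest possible). It was called under each treatment, at -0.52 with saline, -0.54 with the control ASO and -0.52 with the Htt ASO.

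Since Htr2c and Htr1b moved in opposite directions, their ratio within a library, which no scaling of library size can alter, was also taken. Htr2c counts were 1.36 to 3.09 times Htr1b counts in Htt +/+ mice (median 2.11) and 3.69 to 7.02 times in Htt Q111/+ mice (median 5.21). Htr2c alone already separated the genotypes and Htr1b was taken because it fell, so the separation of the ratio is a description. With saline the wild-type ratios spanned 1.36 to 2.77 and the mutant ones 3.92 to 5.66, with the control ASO 1.75 to 3.09 and 3.69 to 7.02, and with the Htt ASO 1.63 to 2.68 and 3.84 to 6.34.

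**Figure D3:**
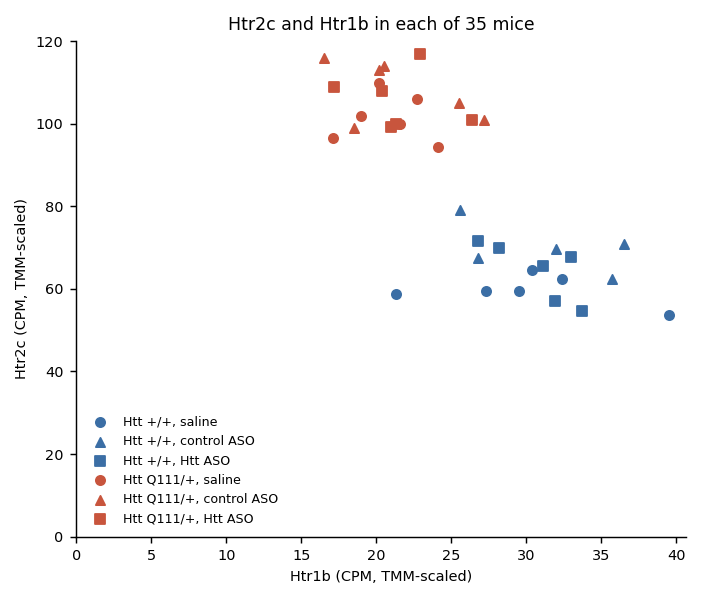
Htr2c against Htr1b in each of 35 mice (CPM, TMM-scaled, both axes linear from 0), colored by genotype with a symbol for each treatment. Htt Q111/+ mice lie at 16.5 to 27.2 CPM of Htr1b and 94.5 to 117 CPM of Htr2c, and Htt +/+ mice at 21.3 to 39.5 and 53.8 to 79.1 CPM.

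Htr4, a Gs-coupled receptor of medium spiny neurons that associates with the adaptor p11 (S100a10), fell by about as much as Htr1b but from a lower level. Htt +/+ mice ranged from 5.4 to 9.32 CPM on saline (median 5.93), 5.36 to 7.78 CPM on control ASO (median 7.07) and 4.86 to 6.76 CPM on Htt ASO (median 6.08). Htt Q111/+ mice ranged from 3.61 to 4.77 CPM on saline (median 4.03), 3.16 to 5.25 CPM on control ASO (median 4.70) and 3.21 to 5.47 CPM on Htt ASO (median 4.62). The groups did not overlap on saline or on control ASO, as was so for 7.07% and 9.58% of tested genes, and overlapped on Htt ASO. The means were 6.33 ± 1.09 CPM (SD, n = 17) and 4.35 ± 0.735 CPM (SD, n = 18), or 68.3% of wild-type (log2 fold change -0.55, SE 0.081, limma adjusted p = 1.33e-06, permutation p = 1e-05, the smallest possible). Within treatments the log2 fold change was -0.64 with saline (limma adjusted p = 0.00111), -0.58 with the control ASO (limma adjusted p = 0.00409) and -0.43 with the Htt ASO (limma adjusted p = 0.0244). The call on Htt ASO was lost without Htt Q111/+ mouse 1 or 3 or without Htt +/+ mouse 2 of the Htt ASO groups, with log2 fold changes of -0.39, -0.33 and -0.39.

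Htr1d, another Gi/o-coupled autoreceptor, showed the smallest change of the 5 that passed. Htt +/+ mice ranged from 10.4 to 18 CPM on saline (median 14.4), 12.4 to 13.6 CPM on control ASO (median 12.9) and 12.8 to 15.7 CPM on Htt ASO (median 14.4). Htt Q111/+ mice ranged from 9.61 to 11.5 CPM on saline (median 11), 10.2 to 13.1 CPM on control ASO (median 12.1) and 10.3 to 14.7 CPM on Htt ASO (median 12.7). The genotypes overlapped under each treatment, and 4 of 18 Htt Q111/+ mice lay below the lowest Htt +/+ mouse. The means were 13.8 ± 1.65 CPM (SD, n = 17) and 11.7 ± 1.34 CPM (SD, n = 18), or 85.2% of wild-type (log2 fold change -0.23, SE 0.052, limma adjusted p = 0.000485, permutation p = 0.00016). It passed on saline, with -0.38 (limma adjusted p = 0.00213), and did not pass on control ASO, with -0.14 (limma adjusted p = 0.305), or on Htt ASO, with -0.17 (limma adjusted p = 0.174).

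Htr1a, Htr6 and Htr7 were low and did not pass. Htr1a, the Gi/o-coupled receptor best known as the somatic autoreceptor of raphe neurons, spanned 1.87 to 3.60 CPM in wild-type (median 2.30) and 2.05 to 3.55 CPM in mutant mice (median 2.42), with a log2 fold change of 0.013 (95% confidence interval -0.16 to 0.19, limma adjusted p = 0.924). Htr6, a Gs-coupled receptor enriched in the striatum, ranged from 1.64 to 3.14 CPM (median 2.52) and from 1.85 to 3.25 CPM (median 2.45), with -0.026 (-0.20 to 0.14, limma adjusted p = 0.838). Htr7, a Gs-coupled receptor prominent in thalamus and hypothalamus, ranged from 2.34 to 4.96 CPM (median 3.34) and from 2.06 to 4.64 CPM (median 3.60), with -0.027 (-0.23 to 0.18, limma adjusted p = 0.856). The genotypes overlapped in all 3, and the intervals leave room for changes of those sizes. On saline Htr6 averaged 2.66 ± 0.249 CPM in wild-type and 2.25 ± 0.271 CPM in mutant mice (SD, n = 6 each; exact permutation p = 0.026, unadjusted for 24 such tests), and limma gave an adjusted p of 0.285.

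With saline 5 members were called by genotype, beside 17.4% of tested genes, with the control ASO 3 beside 18.5%, and with the Htt ASO 4 beside 21.2%. Htr2c, Htr1b and Htr4 were called under each treatment. The direct test of whether the genotype difference depended on treatment found 0 members in each of the 3 interactions, at a background of 0% of tested genes in limma. At an unadjusted p under 0.05 the interactions held 713 genes for Htt ASO against control ASO, 973 for Htt ASO against saline and 1169 for control ASO against saline, none of them a member; edgeR called 0 genes in each, and DESeq2 called 0, 0 and 1. The interaction estimates had wide intervals, as for Htr1d between control ASO and saline (0.24, 95% confidence interval -0.025 to 0.50).

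**Figure D4:**
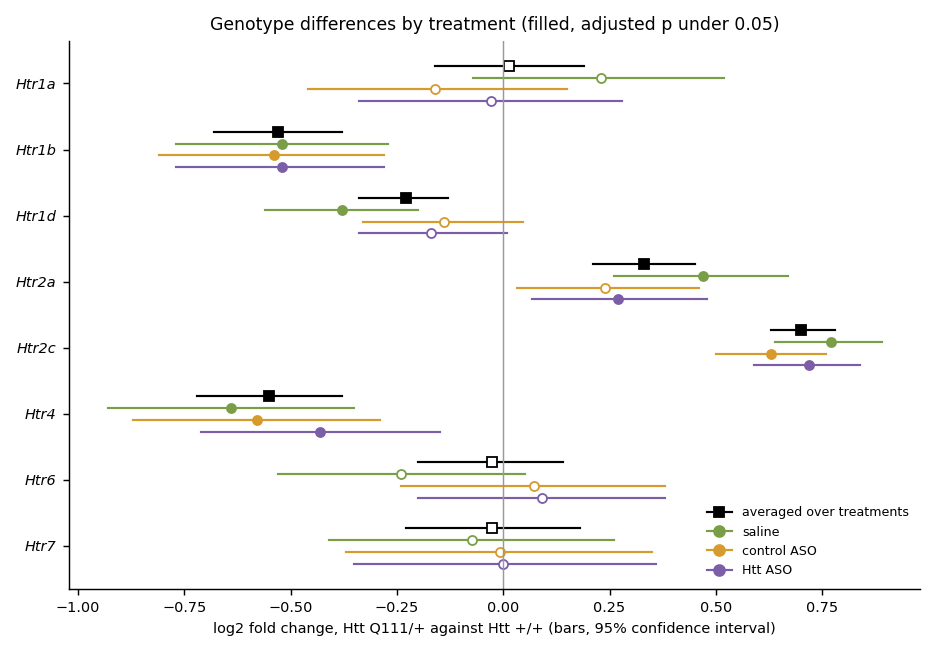
Log2 fold change of each member in Htt Q111/+ against Htt +/+ mice, averaged over treatments (squares) and within each treatment (circles), with 95% confidence intervals; filled symbols have an adjusted p under 0.05 in limma. Htr2c lies between 0.63 and 0.77, Htr1b and Htr4 lie below 0 under every treatment, and Htr1a, Htr6 and Htr7 have intervals that span 0.

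Mice of both genotypes shared 5 of the 6 sequencing lanes. Within these lanes the log2 difference of Htr2c ran from 0.59 to 0.81, Htr2a from 0.19 to 0.66, Htr1b from -0.73 to -0.13, Htr4 from -0.73 to -0.26 and Htr1d from -0.37 to -0.075, each with 1 sign in 5 of 5 lanes. Htr1a, Htr6 and Htr7 had mixed signs. The 6 mice of lane 7 were all Htt Q111/+, and without them Htr4 on saline (log2 fold change -0.49, limma adjusted p = 0.0691) was no longer called.

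No member was called in any of the 9 comparisons of treatments. For Htt ASO against control ASO the background was 0.935% of tested genes averaged over genotypes, 0.295% in Htt +/+ and 0.357% in Htt Q111/+ mice; for Htt ASO against saline it was 1.47%, 0.726% and 0.556%; for control ASO against saline it was 0% in limma in all 3. In that last set 1357, 2080 and 512 genes had an unadjusted p under 0.05, edgeR called 0 in all 3, and DESeq2 called 0, 4 and 1. Among the members edgeR and DESeq2 also called 0 in all 9 comparisons, and 4 of 72 member values had an unadjusted p under 0.05. Both ASO comparisons with saline share the saline mice.

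The 4 values below that unadjusted threshold belonged to Htr2c and Htr1d. Htr2c in wild-type mice averaged 59.7 ± 3.62 CPM with saline and 69.9 ± 6.11 CPM with the control ASO (SD, n = 6 and 5; log2 fold change 0.22, exact permutation p = 0.00866, limma adjusted p = 0.333), while mutant mice averaged 102 ± 5.86 and 108 ± 7.27 CPM (SD, n = 6 each; 0.084, limma adjusted p = 1). The control ASO group includes the mouse with the high choroid plexus markers, and without it the wild-type difference was 0.18 (limma adjusted p = 0.422). Htr1d in Htt Q111/+ mice was 10.7 ± 0.724 CPM on saline and 12.6 ± 1.40 CPM on Htt ASO (SD, n = 6 each; log2 fold change 0.24, exact permutation p = 0.0108, limma adjusted p = 0.521). The other values were averaged over genotypes: Htr2c for control ASO against saline (0.15, limma adjusted p = 0.588) and Htr1d for Htt ASO against saline (0.13, limma adjusted p = 0.499). Outside these 4, Htr1d for Htt ASO against control ASO in wild-type mice had a log2 difference of 0.13 (exact permutation p = 0.0455, limma unadjusted p = 0.165). These exact values are unadjusted for 48 such tests. For Htt ASO against control ASO, averaged over genotypes, every member lay between -0.16 (Htr1a) and 0.12 (Htr1d) with a 95% confidence interval that spanned 0.

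**Figure D5:**
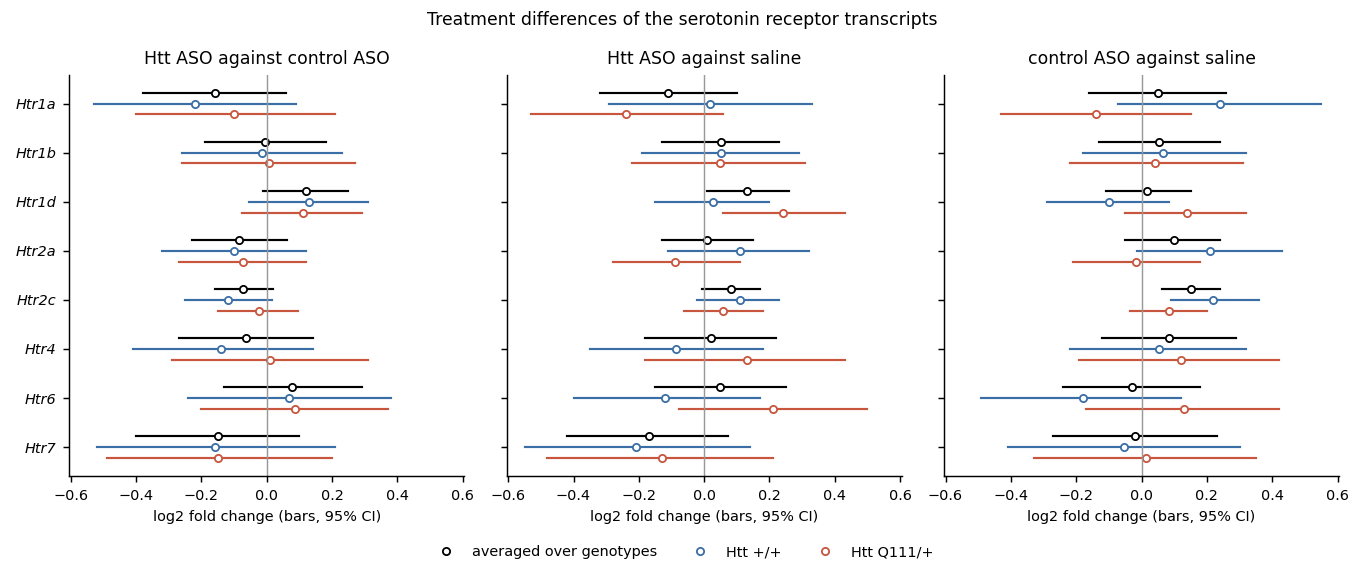
Log2 fold change of each member between treatments, averaged over genotypes and within each, with 95% confidence intervals; open symbols have an adjusted p of 0.05 or more in limma. No symbol is filled, and the interval of Htr2c for control ASO against saline averaged over genotypes, 0.064 to 0.24, lies above 0 before adjustment.

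The members differed in how far mice of 1 group spread. The coefficient of variation pooled within groups was 7.33% for Htr2c, 11.1% for Htr1d, 12.3% for Htr2a, 15.8% for Htr1b, 16.9% for Htr6, 17.9% for Htr4, 19.2% for Htr1a and 20.3% for Htr7. Counting error alone would give 1.81% for Htr2c and 3.31% for Htr1b, but 10.6% for Htr1a and 10.7% for Htr6, whose counts averaged 89.7 and 87.9 per mouse. Over the 35 mice, after removing group means, members varied together or apart with a Pearson r from -0.55 (Htr2c and Htr6) to 0.62 (Htr1d and Htr4) over 28 pairs. Htr2c and Htr1b, which genotype moved in opposite directions, had an r of -0.37, and Htr1a and Htr7 had 0.50; these are descriptions of libraries that share dissection and depth.

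For each member the genes whose levels followed it best from mouse to mouse within groups were taken by Pearson r over the 35 mice, among 15082 genes. Htr7 was followed most closely, by Kcnc2, a fast potassium channel (0.90), Vamp1, a synaptic vesicle protein (0.86), and Adcy8, an adenylyl cyclase (0.86). Htr1b was followed by Socs7 (0.89), Plekhg4 (0.87) and Tmem46 (0.87), Htr2a by Rps6ka5 (0.78) and Zfp281 (0.78), and Htr6 by Timm50 (0.81), Fsd1 (0.80) and Arhgef19 (0.79). Htr2c was followed by Slc4a10, a bicarbonate transporter (0.79), Zcchc12 (0.77) and Usp14 (0.76), and Htr1a by Lhx8, a transcription factor of forebrain cholinergic neurons (0.75), Grem1 (0.72) and 4930544G21Rik (0.70). Htr1d with Rgs19 (0.67), Sall2 (0.66) and Nr2f6 (0.66), and Htr4 with AK039030 (0.64), Cdh7 (0.62) and Itga11 (0.62), had the weakest likeness. Spearman's rho was 0.52 to 0.88 over the pairs named.

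Of the other 6 serotonin receptor genes, 5 were tested and 1 passed averaged over treatments, beside 39.8% of all tested genes. Within each single treatment 0 of these 5 passed, where the share of all tested genes was 17.4% (saline), 18.5% (control ASO) and 21.2% (Htt ASO). With so few genes this count was not tested against those shares. Htr5a, a Gi/o-coupled receptor, averaged 10.2 ± 0.846 CPM in wild-type and 11.2 ± 0.63 CPM in mutant mice (SD, n = 17 and 18; log2 fold change 0.14, limma adjusted p = 0.00308). Htr1f and Htr3a, the latter a subunit of the serotonin-gated ion channel, averaged 1.40 and 1.35 CPM over all mice, with log2 fold changes of -0.040 and -0.065 that did not pass. Htr5b and Htr2b were below 1 CPM and did not pass, and Htr3b, with a mean of 1.83 counts per mouse, was not tested.

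The genes that make, move or break down serotonin were called in 4 of 12 cases, beside 39.8% of all tested genes. Of the 12, Spr (log2 fold change 0.17) and Ddc (0.14), a pterin reductase and the aromatic amino acid decarboxylase, were higher in Htt Q111/+ mice, Slc22a3 (-0.27), an amine transporter, and Qdpr (-0.13), another pterin reductase, were lower, and 8 did not pass. The neuronal serotonin transporter Slc6a4 and the raphe factor Fev, both defining markers of serotonin neurons, were near 0 (at most 0.186 and 0.0557 CPM in any mouse) and were not tested, and Tph2, the neuronal synthetic enzyme, averaged 0.321 CPM in wild-type and 0.318 CPM in mutant mice. Neither of the 2 tested markers of serotonin neurons passed in limma. The 4 listed markers of serotonin neurons summed to at most 1.63 CPM in Htt +/+ mice. In Htt Q111/+ mice the highest sum was 5.31 CPM, in a saline mouse, and Slc18a2, among these markers, reached 4.9 CPM.

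The transducers of each receptor class are given by their calls, beside the same 39.8% of all tested genes. In the Gi/o list, for the HTR1 members, 5 of 9 tested genes were higher, 1 was lower and 3 did not pass, with a median of 0.074; the G protein subunits and channel of smallest adjusted p were Gnai1 (0.16), Kcnj3 (0.29) and Gnao1 (-0.13). In the Gq/11 list, for the HTR2 members, 1 of 8 was higher, 5 were lower and 2 did not pass, with a median of -0.12; they included Itpr1, the inositol trisphosphate receptor (1240 ± 105 against 869 ± 88.0 CPM, -0.52), the phospholipases Plcb1 (-0.38) and Plcb2 (-0.17). In the Gs list, for HTR4, HTR6 and HTR7, 2 of 13 were higher, 5 were lower and 6 did not pass, with a median of -0.059; they included Adcy5, the striatal adenylyl cyclase (1250 ± 81.6 against 837 ± 56.4 CPM, -0.57), Ppp1r1b, which encodes DARPP-32 (-0.48), and Gnal, the striatal Gs-like subunit (-0.17). These are counts of calls, and the lists were not tested as sets. Among receptor partners and editing enzymes, 2 of 11 were higher, 5 were lower and 4 did not pass, with a median of -0.030. Those of smallest adjusted p were Cnr1, the cannabinoid receptor (-0.74), S100a10, the adaptor p11 that binds HTR1B and HTR4 (15.3 ± 1.66 against 9.22 ± 1.05 CPM, -0.72), and Dlg4, a synaptic scaffold (-0.19).

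Markers of cell types are given beside the genotype results. Averaged over treatments, 39.8% of all tested genes passed, 21.8% higher and 18% lower. All 7 markers of medium spiny neurons were lower in Htt Q111/+ mice (median -0.48), led by Pde10a (-0.79), Rgs9 (-0.52) and Adcy5 (-0.57), as were 4 of 5 tested indirect pathway markers, Penk1 (-0.92), Adora2a (-0.71), Drd2 (-0.50) and Gpr6 (-0.56). Direct pathway markers were mixed, with Drd1a (-0.49) and Chrm4 (-0.44) lower and Isl1 (0.35), Eya1 (0.30) and Tac1 (0.13) higher, of 6 tested. In these same Htt Q111/+ mice Htr1b, Htr4 and Htr1d fell, while Htr2c and Htr2a rose. The part of cell make-up in these differences was not tested. Of 7 tested markers of the cortex, where Htr2a is also strongly made, only Rorb passed (-0.31). The sum of the 8 listed cortical markers spanned 12.8 to 77.7 CPM in wild-type and 11.8 to 77.7 CPM in mutant mice. With the mean log2 CPM of these 8 as a covariate, Htr2a was 0.34 (limma adjusted p = 2.98e-05), and the part of cortical content was not tested. Interneuron markers passed in 2 of 9, Th (-0.22) and Nos1 (-0.30), septal markers in 2 of 3, Zic4 (-0.20) and Trpc4 (0.23), and thalamic markers in 1 of 5, Prkcd (-0.14). Of glial and vascular lists, 3 of 8 astrocyte, 3 of 7 oligodendrocyte, 5 of 8 microglial and 6 of 7 endothelial markers were lower, 1 astrocyte marker was higher, and the 3 blood markers did not pass, all averaged over treatments. On saline, control ASO and Htt ASO, 17.4%, 18.5% and 21.2% of all tested genes passed. In that order, microglial markers passed in 0, 2 and 0 cases and endothelial markers in 0, 5 and 2. Astrocyte markers passed in 0, 1 and 2 cases and oligodendrocyte markers in 2, 3 and 2. On control ASO alone the 3 blood markers were lower in Htt Q111/+ mice (median -1.33), as were 5 of 7 endothelial markers (median -0.28), and their part in the genotype differences there was not tested.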

How the data were processed

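Striatal RNA of 35 mice was sequenced by the authors from TruSeq Stranded mRNA libraries. Per the labels and the study's methods, reads were aligned to the mouse transcriptome (genome build mm9) with Bowtie 0.12.9 and quantified with RSEM 1.1.18. The deposited values are expected counts per gene and mouse, estimated by RSEM and not scaled for library size; reads that match more than 1 transcript are shared out by RSEM, so only 55.6% of values were whole numbers. Depth was 32200158 to 38641924 counts per mouse; the treatment labelled ASO1 was taken as Htt ASO by elimination, and the lane as the L number of the sample titles.

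The software was limma 3.58.1 with edgeR 4.0.16, run under R 4.3.3. Genes were kept by filterByExpr over the 6 groups (minimum count 10, minimum total 15), scaled by TMM, and fitted by limma after voom with a mean for each group over all mice (29 residual degrees of freedom). Benjamini-Hochberg adjustment covered 17639 genes, and calls needed an adjusted p under 0.05. Printed CPM use library sizes scaled by TMM; log2 CPM add a prior count of 2. Exact permutation tests were two-sided, over mice of the groups compared, with a smallest possible p of 0.00216; the permutation of genotype within treatments was two-sided with 100000 resamples. The code was tested on simulated data. No 2 mice of a group agreed within sampling noise (85 pairs compared; chi-square divided by its degrees of freedom was 3.53 to 16.1).

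The members and the gene lists were chosen with earlier results of these data known. The genes named were the 8 members, Hdh, the 3 genes most like each member (1 of them is not reported here), and, of each pathway list, every gene called by genotype where 5 or fewer were, otherwise the 3 of smallest adjusted p, with genes under 1 CPM counted only. Cell type markers, Htr1f, Htr3a and the genes under 1 CPM that are named were chosen after their values were seen. Symbols were matched to GENCODE M21 (GRCm38) for transcript lengths, and promoters came from RefSeq on GRCm38.p6. Other settings tried were DESeq2 1.42.0 and the quasi-likelihood test of edgeR on rounded counts, library totals, other filters, lane as a covariate, the letters of mouse names as a block, no lane 7, sample quality weights, only the groups compared, no left hemistriatum mouse, choroid plexus or cortical levels as covariates, and leaving out each mouse.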

Additional observations from a re-analysis of the deposited data

Results flagged for a closer look

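Among 48 sets of a member's values in 1 group, Htr4 in Htt +/+ saline mice held 1 value far from the others: mouse 3 had 9.32 CPM and the next highest 6.46 CPM, a gap of 0.73 of the range of the 6 mice. Chance alone flags about 1 in 20 such sets. Without this mouse the Htr4 genotype difference was -0.51 averaged over treatments (limma adjusted p = 9.58e-07) and -0.53 on saline (limma adjusted p = 0.00438).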

How the results depend on the processing

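The 5 members called by genotype averaged over treatments kept their direction and their call under all 12 alternatives and when each of 35 mice was left out, with log2 fold changes of 0.69 to 0.74 for Htr2c, 0.30 to 0.39 for Htr2a, -0.59 to -0.49 for Htr1b, -0.58 to -0.51 for Htr4 and -0.26 to -0.19 for Htr1d. On Htt ASO the count of members called fell from 4 to 2 without lane 7, and ranged from 2 to 4 when each mouse was left out, being 2 without Htt Q111/+ Htt ASO mouse 1 or Htt +/+ Htt ASO mouse 2; the members lost were Htr2a, whose adjusted p of 0.0494 lies at the threshold, and Htr4. The Htr2a call was also lost with no filter on low counts (adjusted p = 0.0597), without the left hemistriatum mouse (0.0914) and with only the groups compared (0.0592). Of 13 alternatives for this comparison, 4 lost the Htr2a call and 2 lost the Htr4 call, each count including the fit without lane 7. Several members not called, near 0, changed sign; those that did so by more than 1 SE were these: with lane as a covariate Htr1a averaged over treatments was -0.078 and Htr6 on Htt ASO was -0.085, and without lane 7 Htr4 for control ASO against saline was -0.045 averaged over genotypes and -0.15 in Htt Q111/+ mice; the cause was not tested. Under library totals 72.1% of 8089 genes called by genotype were higher, against 54.7% of 7024 with TMM, and the median gene moved from 0.0037 to 0.043. The block of mouse name letters (21 letters, correlation 0.0909) changed no call averaged over treatments. No paired analysis was possible because replicates carry no number shared between groups in the labels, and the block of name letters was fitted as a random term, not as pairs of mice. With a mean of 89.7 and 87.9 counts per mouse, counting error was over 10% for Htr1a and Htr6, which limits what could be seen there.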
